A study of Homo sapiens and Mus musculus with 33 samples.

Results

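The genes described here are 49 genes whose proteins carry out mitosis: the kinases and phosphatases of mitotic entry, the spindle checkpoint, anaphase factors, the chromosomal passenger complex, centromere and kinetochore proteins, kinesins, spindle-associated and cytokinesis proteins, and 2 genes of chromosome structure. They were chosen by name, and all 49 were found among the 35805 genes of the HCT116 RNA table and, under their mouse names, among the 25965 genes of the colon RNA table. Their peaks were those in the gene or within 2 kb of it, which were 75 of 40266 peaks in the HCT116 table, 35 of 30338 in the colon H3K18cr table and 59 of 27035 in the colon H3K4me3 table. The series had 33 libraries. HCT116, a human colon carcinoma cell line, was treated for 18 h with 5 µM MS275 (entinostat, an inhibitor of class I histone deacetylases) or with its solvent DMSO. There were 4 RNA libraries of each treatment, 3 of H3K18cr ChIP, 3 of H3K18ac ChIP and 1 input. Colon epithelium was taken from C57BL/6 mice with no treatment named, for RNA (3 mice), H3K18cr ChIP (2 libraries with 2 inputs) and H3K4me3 ChIP (3 libraries with 1 input), and the chromatin of 3 colons was pooled before the colon ChIP. MS275 was tested in 1 cell line at 1 dose and 1 time. The RNA samples were called biological replicates. For the ChIP libraries of HCT116 the labels do not say whether the 3 of a group came from separate cultures, and the methods name fewer replicates for H3K18cr than the 3 used here. Their p-values measure the spread between these libraries, which may be technical.

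Total counts per library ran from 35608533 to 53415604 in HCT116 RNA and from 8166406 to 10707901 in colon RNA. The colon libraries carried the labelled cell type: all 10 epithelial markers reached 1 CPM (counts scaled to library size), with a sum of 11922 to 13539 CPM, beside 31.6 to 52.8 CPM for 10 immune markers and 25.7 to 32.8 CPM for 10 stromal and endothelial markers, of which Pdgfra was at 0. In HCT116 with DMSO the epithelial markers summed to 3624 to 5164 CPM, with SLC26A3 and LGALS4 at 0. Of the 10 crypt base and progenitor markers, 6 had a mean of at least 1 CPM, and LGR5, ASCL2, OLFM4 and SMOC2 were at 0. This list summed to 972 to 1733 CPM.

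Cells enter mitosis when cyclin B activates CDK1, with the kinases PLK1 and Aurora A driving spindle assembly. The checkpoint proteins (BUB1, BUB1B, BUB3, MAD2L1 and TTK) hold back the anaphase-promoting complex and its activator CDC20 until every kinetochore is attached, after which cyclin B and securin (PTTG1) are degraded and separase (ESPL1) cuts cohesin. These genes are transcribed mainly in late S, G2 and M phase. Their promoters are held silent by the DREAM complex and driven by MuvB with B-MYB and FOXM1 through the cell cycle genes homology region (CHR), and by NF-Y through CCAAT boxes. In colon epithelium the dividing cells sit in the lower crypt, while the cells at the surface have left the cycle. Crotonylation and acetylation of lysine 18 of histone H3 (H3K18cr and H3K18ac) and trimethylation of its lysine 4 (H3K4me3) mark the start sites of active genes, and class I histone deacetylases can remove both acyl groups.

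The promoters of these genes shared letters that the choice of genes did not use. RefSeq windows of GRCh38.p14, from 250 bases before to 50 after each start, were matched for 42 of the 49 genes, in 53 windows. TTK, AURKA, BIRC5, UBE2C, FOXM1, TPX2 and BUB3 were not matched. The CHR was searched as TTTGAA or TTCGAA on both strands and the CCAAT box as CCAAT on both strands, counting matches that overlap each other. A CHR stood in 38 of the 53 windows (71.7%), against 16.4% of all 35116 windows and 11.6% of the 14852 windows of genes tested in the HCT116 RNA. CCAAT stood in 73.6% of the windows, against 34.6% of all windows and 34.5% of those of tested genes, and both stood in 58.5%, against 6.38% and 4.67%. Where a gene had a CHR in the window nearest its deposited start (32 of 42), the nearest copy lay at a median of 21 bases before the start, and in 26 genes within 50 bases of it. These matches are letters in a window and not shown sites.

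Stretches from 200 bases before to 10 after the start are printed for 7 genes that the results return to and that hold both motifs, with CHR and CCAAT letters on either strand in capitals (in MKI67 a CHR and a CCAAT overlap).
CDK1 (chr10:60778131-60778340, plus strand): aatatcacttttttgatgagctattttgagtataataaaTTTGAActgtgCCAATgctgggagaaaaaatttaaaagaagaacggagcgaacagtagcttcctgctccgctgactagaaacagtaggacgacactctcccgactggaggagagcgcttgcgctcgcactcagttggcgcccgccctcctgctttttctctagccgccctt
PLK1 (chr16:23678689-23678898, plus strand): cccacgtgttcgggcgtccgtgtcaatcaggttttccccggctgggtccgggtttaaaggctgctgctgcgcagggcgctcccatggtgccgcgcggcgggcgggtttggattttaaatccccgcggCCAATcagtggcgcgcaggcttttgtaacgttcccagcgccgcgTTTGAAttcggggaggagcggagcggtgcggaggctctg
BUB1 (chr2:110678054-110678263, minus strand): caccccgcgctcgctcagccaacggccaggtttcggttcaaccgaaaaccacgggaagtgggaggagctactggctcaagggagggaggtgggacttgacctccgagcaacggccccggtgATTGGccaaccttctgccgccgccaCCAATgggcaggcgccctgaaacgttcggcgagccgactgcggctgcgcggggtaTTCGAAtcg
CDC20 (chr1:43358781-43358990, plus strand): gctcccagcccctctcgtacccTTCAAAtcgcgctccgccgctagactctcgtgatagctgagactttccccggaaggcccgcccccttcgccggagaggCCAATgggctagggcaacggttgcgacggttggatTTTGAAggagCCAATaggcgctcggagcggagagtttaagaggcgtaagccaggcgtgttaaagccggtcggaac
CENPA (chr2:26785856-26786065, plus strand): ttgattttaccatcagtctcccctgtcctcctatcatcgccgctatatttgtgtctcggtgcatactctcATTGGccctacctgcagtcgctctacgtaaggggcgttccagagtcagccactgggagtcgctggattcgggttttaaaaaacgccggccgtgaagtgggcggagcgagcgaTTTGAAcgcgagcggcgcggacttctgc
TOP2A (chr17:40417887-40418096, minus strand): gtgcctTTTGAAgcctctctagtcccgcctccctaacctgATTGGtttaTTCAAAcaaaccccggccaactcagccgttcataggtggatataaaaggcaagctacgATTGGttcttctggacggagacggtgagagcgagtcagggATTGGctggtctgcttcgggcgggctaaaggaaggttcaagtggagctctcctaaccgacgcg
MKI67 (chr10:128126414-128126623, minus strand): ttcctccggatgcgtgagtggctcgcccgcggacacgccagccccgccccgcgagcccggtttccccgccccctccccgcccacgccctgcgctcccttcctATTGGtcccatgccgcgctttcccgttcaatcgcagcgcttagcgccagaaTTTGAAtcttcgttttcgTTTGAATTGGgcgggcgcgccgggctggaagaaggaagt

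In HCT116 cells with DMSO these genes were among the more abundant transcripts, and in colon epithelium most lay near the middle of the range. Levels were compared as CPM per kb of exon, and each gene was placed by its percentile among the genes with a count. Here and below, genes with a count are those that also had a matched exon length. They were 15862 of the 22745 genes with any count in HCT116 with DMSO, and 14941 of 16691 in colon. The median percentile of the 49 genes was 89.6 in HCT116 (60.8 to 98.8; all 49 above 50 and 23 above 90) and 52.7 in colon (28.4 to 89.7; 31 above 50 and 0 above 90). CDC20, the activator of the anaphase-promoting complex, led both orders: it stood at 221, 150.1, 169 and 134 CPM per kb in the 4 DMSO libraries and at 31.7, 39.7 and 31.5 in the 3 mice. In colon the next genes were Ccnb2 (cyclin B2), at 22.7, 27.6 and 20.8 CPM per kb, and Hjurp, the chaperone that loads CENPA, at 20.2, 23.7 and 21.8, whose ranges overlapped. The ChIP inputs over Hjurp were high for the width of its peak, as given below. Whether this bears on its RNA level and percentile in colon was not tested. The lowest in colon were Kif18a, a kinesin that shortens kinetochore microtubules, at 0.922, 0.665 and 0.461 CPM per kb, Ndc80, the core microtubule-binding kinetochore protein, at 0.66, 1.05 and 0.778, and Kif14, a cytokinesis kinesin, at 1.19, 0.992 and 0.975. Each gene's range over the 3 mice overlapped that of the next gene in the order, except between Cdc20 and Ccnb2.

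Of the genes by which mitosis is usually read, Plk1 stood at 17.7, 22.1 and 14.1 CPM per kb in the 3 mice (percentile 80.3), Top2a, the topoisomerase of chromosome condensation, at 18.1, 21.7 and 15 (percentile 80.6), and Mki67, the Ki-67 coat protein of mitotic chromosomes, at 10.6, 12.9 and 8.77 (percentile 70.1). Aurkb, the kinase of the chromosomal passenger complex, lay at percentile 74.4, Aurka at 64.8, Kif20a, a kinesin of the central spindle, at 61.3, Cdk1 at 60.7, Foxm1 at 57.2, Ccnb1 at 53.04, Cenpa, the centromeric histone, at 50.04 and Bub1 at 48.8. By role, the 4 anaphase genes had the second highest median percentile in colon (72.4), after the 2 chromosome structure genes (75.3), and the 8 centromere and kinetochore genes the lowest (45.2). The order was alike in both tables (Spearman's rho 0.68 over the 49 genes, a description over genes that share libraries). The difference between tables was smallest for HJURP (0.14 percentile points) and SPC24 (5.57), a kinetochore subunit, and largest for KIF18A (54.4), NDC80 (51.4) and HMMR (50.7), a microtubule-binding protein of the spindle. The tables were normalized separately and differ in species, so no test was run between them. The summed level of the 49 genes was 1747, 1956 and 1524 CPM in the 3 mice, where the crypt base and progenitor markers summed to 967 to 1120 CPM and the markers of differentiated colonocytes and goblet cells to 13258 to 19788 CPM. In such bulk RNA, fewer dividing cells and less RNA per cell cannot be told apart.

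**Figure D1:**
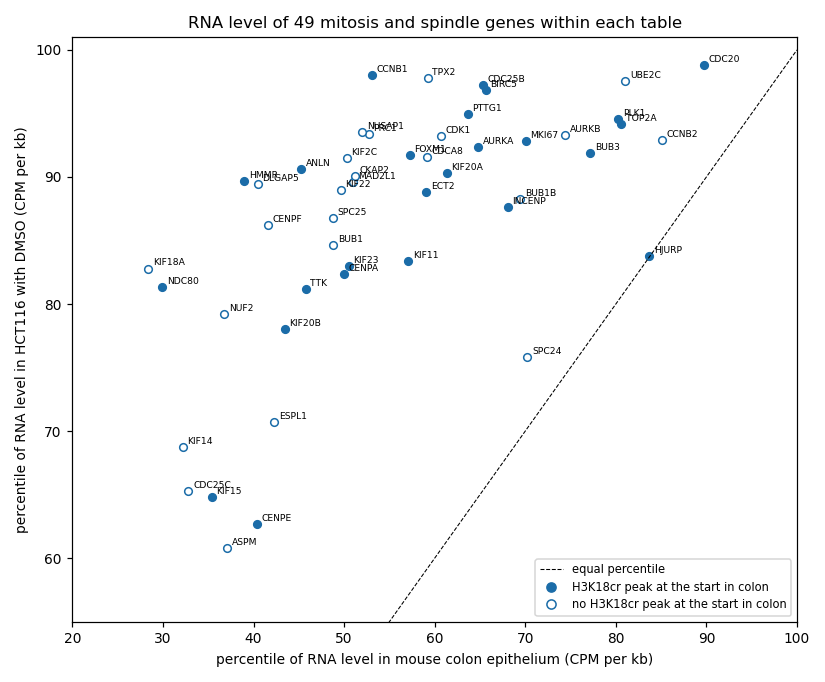
Each point is 1 of the 49 mitotic genes, placed by its percentile among genes with a count (by CPM per kb of exon). The x axis is mouse colon epithelium (mean of 3 mice) and the y axis HCT116 with DMSO (mean of 4 libraries). Points are filled where an H3K18cr peak in colon came within 1 kb of the gene's start. HJURP lies on the line of equal percentile, SPC24 near it, and the other genes above it.

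Whether MS275 changed the RNA of these genes was tested with edgeR over all 14961 genes that passed the count filter, which all 49 did. No mitotic gene passed at an adjusted p of 0.05 when the 4 libraries of each treatment were compared as independent groups, where 1 gene in all was called (0.00668%). None of them, 0 of 49, reached an unadjusted p under 0.05, against 6.60% of all genes. DESeq2 called 161 genes and 0 of the 49. When same-numbered DMSO and MS275 libraries were taken as pairs, which their correlated deviations allowed, 15 of the 49 genes were called. Of these, 8 were lower with MS275 (CCNB1, PLK1, AURKA, MAD2L1, UBE2C, NDC80, KIF22 and PRC1) and 7 were higher (ANLN, CENPE, ASPM, MKI67, TOP2A, BUB1 and CENPF). The paired background was 14.4% of all genes (7.83% higher, 6.55% lower) and 20.3% of the 7735 genes with a mean CPM in the range of the 49 (9.37% higher, and 847 genes lower). The median change of the 49 genes was -0.03 (log2), with 27 lower and 22 higher, beside 0.01 over all genes. The changes were small, at most 0.48 in size among those called, and the libraries of the treatments were without overlap at 0 of the 49 genes, against 5.37% of all genes tested.

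**Figure D2:**
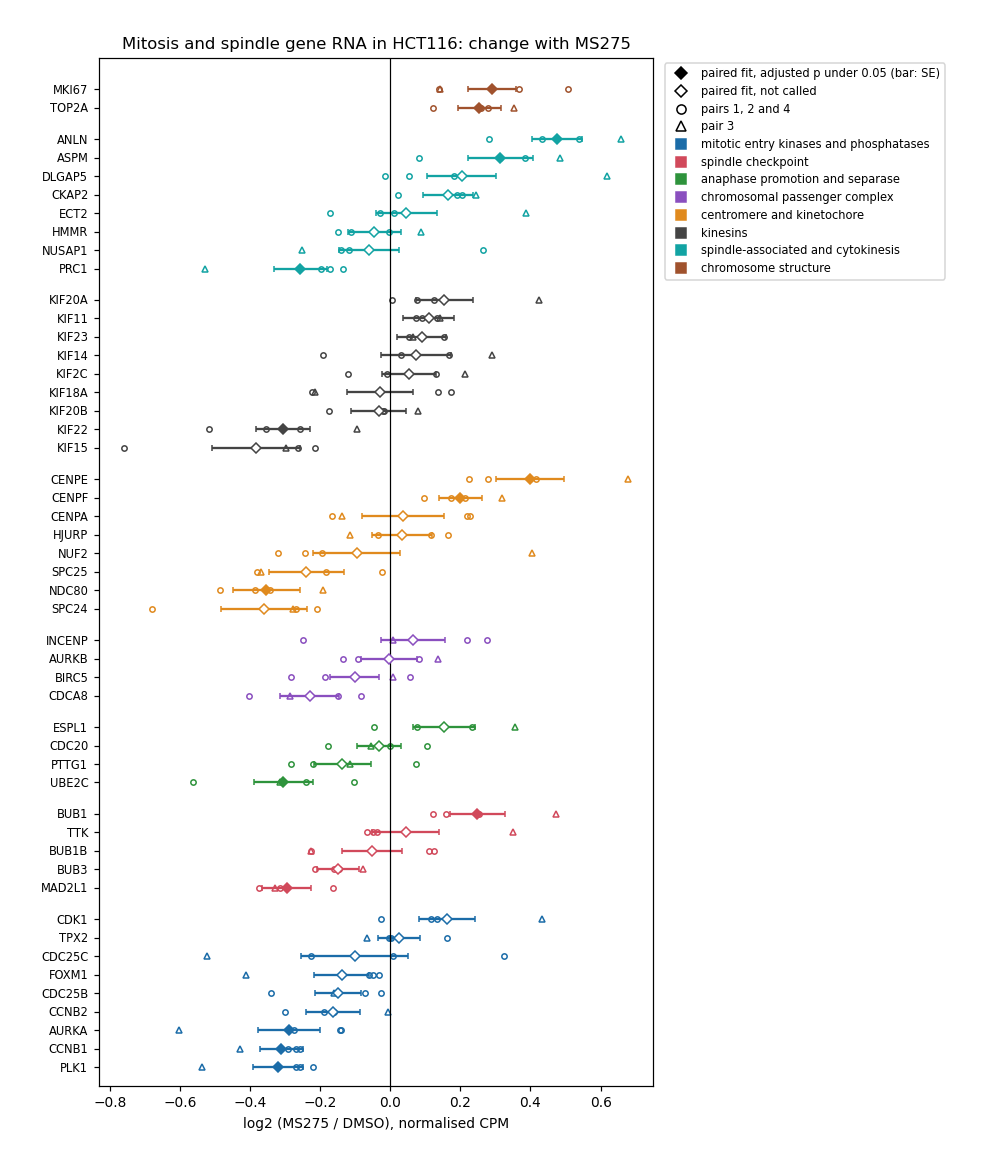
Log2 change in RNA (MS275 over DMSO) of the 49 genes in HCT116, grouped by role. Diamonds with bars are edgeR's paired estimate and its SE (filled at an adjusted p under 0.05), and small symbols are the 4 pairs (triangles for pair 3). The 15 called genes lie on both sides of 0, from -0.35 for NDC80 to 0.48 for ANLN.

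The 9 genes of mitotic entry held 3 that fell in the paired fit and 0 that rose, with a median of -0.15 (log2). Values after ± are standard errors of a log2 change. CCNB1, which encodes cyclin B1, stood at 367, 293, 204 and 241 CPM in DMSO replicates 1 to 4 and at 304, 239.6, 152 and 201.2 CPM in MS275 replicates 1 to 4. Every MS275 library was below its DMSO partner, but the replicate 1 library with MS275 was above 3 of the DMSO libraries. The paired change was -0.31 ± 0.06, adjusted p = 0.00614 by edgeR, against an adjusted p of 0.913 unpaired. PLK1, the Polo kinase, stood at 287, 200.7, 215 and 169 CPM with DMSO and 240.1, 167, 148 and 145 CPM with MS275, again lower in 4 of 4 pairs (-0.32 ± 0.07, adjusted p = 0.0102 by edgeR). AURKA, the Aurora A kinase of the spindle poles, stood at 119, 95, 103 and 86.9 CPM with DMSO and 108, 78.4, 67.98 and 78.7 CPM with MS275 (-0.29 ± 0.09, adjusted p = 0.0476 by edgeR). CDK1, whose kinase cyclin B activates, was not called: its values were 197, 150.2, 91.6 and 146 CPM with DMSO and 213, 165, 124 and 143 CPM with MS275 (0.16 ± 0.08, adjusted p = 0.199 by edgeR). The transcription factor gene FOXM1 was not called either, at 185, 124, 227 and 117 CPM with DMSO and 178, 121, 171 and 112 CPM with MS275 (-0.14 ± 0.08, adjusted p = 0.266 by edgeR). CCNB2, CDC25B, CDC25C and TPX2 made up the rest of the group and were not called.

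Among the 5 checkpoint genes 1 rose and 1 fell. MAD2L1, the inhibitor of CDC20, stood at 195, 134, 102 and 140.1 CPM with DMSO and 156, 120.2, 81.4 and 108 CPM with MS275 (-0.30 ± 0.07, adjusted p = 0.0151 by edgeR). BUB1, a kinase of unattached kinetochores, moved the other way, from 154, 117, 47.8 and 111 CPM to 172, 128, 66.3 and 132 CPM (0.25 ± 0.08, adjusted p = 0.0499 by edgeR). Both moved one way in 4 of 4 pairs, and DMSO replicate 3 was the lowest library for both genes within its group. Of the 4 anaphase genes, UBE2C, the ubiquitin-conjugating enzyme of the anaphase-promoting complex, fell (-0.30 ± 0.08, adjusted p = 0.0285 by edgeR), from 160.3, 119, 114 and 94.4 CPM to 149, 80.5, 91.9 and 79.9 CPM. CDC20 stood at 446, 286, 384 and 257 CPM with DMSO and 395, 307, 369.5 and 256 CPM with MS275 and was not called (-0.03 ± 0.06, adjusted p = 0.783 by edgeR). The 4 passenger complex genes held 0 calls, and AURKB stood at 105, 78.7, 98.96 and 62.2 CPM with DMSO and 95.8, 73.8, 109 and 65.8 CPM with MS275 (adjusted p = 0.986 by edgeR, paired).

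Of the 8 centromere and kinetochore genes, CENPE and CENPF rose and NDC80 fell. CENPE, the kinesin that moves chromosomes to the spindle equator, stood at 59.3, 44.2, 54.9 and 46.5 CPM with DMSO and 71.8, 58.97, 87.8 and 54.3 CPM with MS275 (0.40 ± 0.10, adjusted p = 0.0164 by edgeR). MS275 replicate 3 was its highest library. NDC80 stood at 69.2, 55.8, 27.9 and 44.8 CPM with DMSO and 49.4, 44.01, 24.4 and 34.3 CPM with MS275 (-0.35 ± 0.10, adjusted p = 0.0282 by edgeR). CENPF, a kinetochore protein of G2 and M phase, changed by 0.20 ± 0.06, adjusted p = 0.0497 (edgeR). SPC24 had the second lowest estimate of the 49 and was not called, at 37.2, 19.99, 44.9 and 16.5 CPM with DMSO and 23.2, 16.6, 36.99 and 14.3 CPM with MS275 (-0.36 ± 0.12, adjusted p = 0.066 by edgeR). The replicate 1 and 3 libraries were its highest with either treatment. CENPA stood at 32.3, 28.4, 31.2 and 26.1 CPM with DMSO and 37.7, 33.3, 28.3 and 23.3 CPM with MS275 and was not called (adjusted p = 0.878 by edgeR, paired). Of the 9 kinesins 1 was called: KIF22, which pushes chromosome arms from the poles, was lower with MS275 (-0.31 ± 0.08, adjusted p = 0.0192 by edgeR). KIF15, a kinesin that supports spindle bipolarity, had the lowest estimate of the 49 but a wider error, at 38.6, 31.01, 17.6 and 32.2 CPM with DMSO and 33.2, 18.3, 14.3 and 26.8 CPM with MS275 (-0.38 ± 0.13, adjusted p = 0.0597 by edgeR). KIF20A was not called, at 137, 117, 48.9 and 119 CPM with DMSO and 149, 124, 65.6 and 119 CPM with MS275 (adjusted p = 0.235 by edgeR, paired).

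ANLN, the anillin scaffold of the cleavage furrow, had the largest rise, from 214, 197, 74.3 and 191 CPM with DMSO to 310.3, 240.0, 117 and 258 CPM with MS275 (0.48 ± 0.07, adjusted p = 0.00144 by edgeR; 0.91 unpaired). The replicate 3 libraries held 74.3 and 117 CPM, the lowest of each treatment, so the groups overlapped although each pair rose. ASPM, a spindle pole protein, rose from 65.5, 62.04, 30.4 and 63.1 CPM to 81.3, 65.7, 42.5 and 82.4 CPM (0.31 ± 0.09, adjusted p = 0.0383 by edgeR). PRC1, which bundles the microtubules of the central spindle, fell (-0.26 ± 0.08, adjusted p = 0.039 by edgeR). They were the other calls among the 8 spindle-associated and cytokinesis genes. Both chromosome structure genes rose. MKI67 stood at 492, 445, 492 and 439 CPM with DMSO and 698, 490.0, 543 and 566 CPM with MS275 (0.29 ± 0.07, adjusted p = 0.0152 by edgeR). TOP2A stood at 328, 219.6, 330.1 and 224 CPM with DMSO and 398, 239, 421 and 268 CPM with MS275 (0.25 ± 0.06, adjusted p = 0.0168 by edgeR). For TOP2A the libraries of replicates 1 and 3 were the high ones with either treatment.

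The libraries also differed by replicate number. The sum of the 49 genes was 8256 and 8289 CPM in the replicate 1 libraries and 5898 to 6515 CPM in the others, and the median deviation of the 49 genes from their mean (log2) was 0.40 and 0.37 in replicate 1 and -0.29 and -0.41 in replicate 3. Against the mean of the other 6 libraries, the mean of the 2 replicate 3 libraries held the 49 genes at a median of -0.56 (log2), from -1.46 for KIF18A to 0.97 for SPC24, with 26 of them below -0.5. The 12086 protein-coding genes tested had a median of -0.05, with 2886 below -0.5. This deviation was lower for longer exon lengths (Spearman's rho -0.24 over the 49 genes and -0.35 over all coding genes, descriptions over genes), and its part in the calls was not tested. With 1 pair left out at a time, 5, 7, 11 and 4 of the 49 genes were called without pairs 1 to 4, when 6.43%, 6.54%, 17.2% and 6.87% of all genes were. CCNB1, PLK1 and ANLN were called in all 4 of these fits and CENPE in 3, while AURKA, BUB1, CENPF and PRC1 were called in 0. At 8 genes (CDC25C, FOXM1, NUF2, SPC24, KIF18A, KIF20A, KIF23 and ANLN) a tested gene on the other strand overlaps the member, and at BUB1B, CENPA and KIF15 one on the same strand does. The use of strand in counting is not given in the sources used here, so their reads could include that neighbour's.

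**Figure D3:**
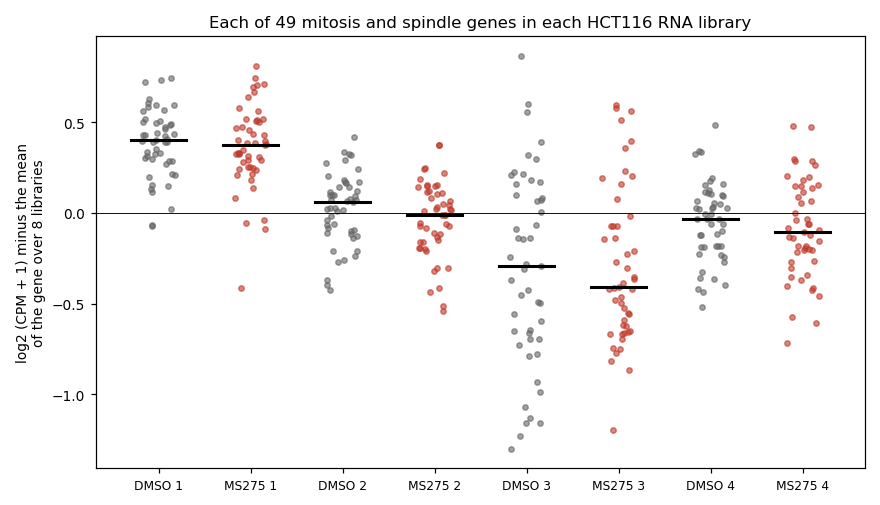
Each point is 1 of the 49 mitotic genes in 1 of the 8 HCT116 RNA libraries, as log2 (CPM + 1) minus the gene's mean over the 8 libraries, and bars are the medians over the 49 genes. The replicate 1 libraries sit highest with either treatment (0.40 and 0.37) and the replicate 3 libraries lowest (-0.29 and -0.41).

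Related gene lists held 0 unpaired calls, and their paired calls are to be read against 14.4% of all genes. Of 18 condensin and cohesin genes NCAPD2 rose (0.25, adjusted p = 0.0133 by edgeR), and of 16 subunits of the anaphase-promoting complex ANAPC13 fell (-0.46, adjusted p = 0.028 by edgeR). Among 28 other kinetochore genes PMF1 fell (-0.68) and CASC5, the KNL1 scaffold, rose (0.38), and among 21 other spindle and centrosome genes the abscission factor CEP55 rose (0.37). Of 11 other cyclins and entry regulators 3 fell: CCNA2, the cyclin of S and G2 phase (-0.31), PKMYT1, a kinase that inhibits CDK1 (-0.25), and CKS1B (-0.31). Of 12 DREAM and MuvB genes TFDP1 (-0.32) and E2F4 (-0.29) fell. Among the marker lists, 4 of 7 tested epithelial genes rose and 2 fell, 3 of 6 crypt genes and 1 of 3 stromal genes rose, and 0 of 2 immune and 0 of 2 differentiated-cell genes were called.

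Nearly all of the mitotic genes carried a peak of the HCT116 H3K18cr and H3K18ac table at their start, within 1 kb, and the scaled reads of both marks were lower there with MS275. The peak was present at 47 of 49 starts (95.9%), against 93.1% of the 6030 genes at levels in the same range and 70.8% of the 15862 genes with a count. NUF2 and SPC25, kinetochore subunits, had no peak at the start given in the table, but peaks lay over their RefSeq starts (H3K18cr changes of -0.40 and -0.50, adjusted p = 0.136 and 0.0851 by limma), and that of NUF2 is also the start peak of another gene. H3K18cr was lower with MS275 at all 47 promoters, 33 of them past an adjusted p of 0.05 by limma, with a median of -0.61 (log2). That share lay close to the background of promoters, where 62.7% were called lower with a median of -0.59, while over all peaks 23.4% were called lower with a median of -0.20. H3K18ac was also lower at all 47, with 25 called and a median of -0.69, beside 49.3% of promoters called and a median of -0.66, and 16.6% of all peaks and a median of -0.19. In both marks 0 of the 47 were called higher. The study compared its averages over starts as pairs, and in a fit blocked by replicate number the calls were 38 of 47 in H3K18cr (69.0% of promoters) and 0 of 47 in H3K18ac (6.84%) by limma. The same block in edgeR with TMM called 29 (53.1% of promoters) in H3K18cr and 24 (46.6%) in H3K18ac. All 3 libraries with MS275 lay below all 3 with DMSO at 29 of the 47 promoters in H3K18cr, where 68.9% of promoters were so, and at 23 of 47 in H3K18ac, where 55.7% were.

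The values were the authors' reads in a peak scaled to the largest library, so they carry no outside standard and compare shares of reads, not amounts of a mark in the cell. Scaling by edgeR's TMM instead moved the median change of all peaks from -0.20 to 0.04 in H3K18cr and from -0.19 to 0.06 in H3K18ac. Under it the 47 promoters had medians of -0.38 and -0.44, with 18 and 27 called lower against 35.2% and 50.5% of promoters, and lower values at 47 and 45 of them. Against the input of the same treatment, the median log2 ratio of the 47 promoters in H3K18cr was 1.65 with DMSO and 1.18 with MS275, and in H3K18ac 1.51 and 1.07. Over all promoters the medians went from 1.69 to 1.18 and from 1.78 to 1.21. At 17 of the 47 promoters the peak also came within 1 kb of the start of another tested gene, 16 of them on the opposite strand (AURKA with CSTF1, KIF20A with BRD8, HMMR with NUDCD2 and NUSAP1 with OIP5 among them), so the mark there cannot be assigned to 1 of them.

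The largest falls in H3K18cr were at ECT2, KIF20B and KIF23. At the ECT2 promoter (chr3:172747201-172754400, GRCh38), the gene of the exchange factor that activates RhoA at the furrow, the 3 libraries held 683, 703 and 718 scaled reads with DMSO and 292, 279 and 431 with MS275. The groups were far apart (-1.10 ± 0.16, adjusted p = 3.37e-05 by limma). KIF20B, a kinesin of the midbody, held 159, 152 and 108 scaled reads with DMSO and 65.2, 73.6 and 64.5 with MS275 at chr10:89700601-89702850 (-1.02 ± 0.19, adjusted p = 0.000202 by limma). KIF23, the kinesin of the centralspindlin complex, held 298, 249.8 and 251 scaled reads with DMSO and 169, 109 and 142 with MS275 at chr15:69412351-69415950 (-0.95 ± 0.17, adjusted p = 0.000201 by limma). In both, all MS275 libraries were below all DMSO libraries. CENPF changed by -0.93 (adjusted p = 0.000257) and KIF18A by -0.93 (adjusted p = 0.000257) by limma. The smallest differences were at INCENP, the scaffold of the passenger complex, at -0.17 (adjusted p = 0.686), HJURP, at -0.32 (adjusted p = 0.338), and TOP2A, at -0.35 (adjusted p = 0.254) by limma, none of them called.

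At the genes of mitotic entry, H3K18cr was called lower at 6 of 9 by limma: CCNB2 (-0.88, adjusted p = 0.000834), FOXM1 (-0.82, adjusted p = 0.00115), CDK1 (-0.71, adjusted p = 0.00311), CDC25C (-0.61, adjusted p = 0.00545), AURKA (-0.56, adjusted p = 0.0166) and CDC25B (-0.46, adjusted p = 0.036). The FOXM1 promoter held 348, 289 and 193 scaled reads with DMSO and 163, 157 and 137 with MS275. At CCNB1 the libraries held 214, 168 and 128 scaled reads with DMSO and 117, 133 and 118 with MS275, and at PLK1 204, 191 and 89.7 scaled reads with DMSO and 128, 108 and 95.4 with MS275. The groups of both overlapped and neither was called (-0.44, adjusted p = 0.0807, and -0.47, adjusted p = 0.13 by limma). With the block by replicate number both were called (adjusted p = 0.0373 and 0.0278 by limma), so calls at single promoters depended on the block. CDC20 held 273, 251 and 135 scaled reads with DMSO and 128, 143 and 126 with MS275 (-0.66 ± 0.20, adjusted p = 0.0128 by limma), with DMSO replicate 3 the lowest of its group. AURKB (-0.61, adjusted p = 0.00719), CENPA (-0.59, adjusted p = 0.0145) and MKI67 (-0.50, adjusted p = 0.0212) were also called by limma, while BUB1 (-0.43, adjusted p = 0.165) and KIF20A (-0.52, adjusted p = 0.0719) were not. The CENPA value is from the peak at the start given in the table, which is also the start of SLC35F6 and apart from the RefSeq start of CENPA. The counts moved with single libraries, as did those of all promoters. Without DMSO replicate 3, 47 of the 47 promoters were called (77.4% of all promoters). Without DMSO replicate 1 or 2 the counts were 20 (44.1%) and 23 (46.5%), and without MS275 replicates 1 to 3 they were 25 (45.8%), 23 (44.2%) and 27 (59.5%).

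ECT2 also had the largest fall in H3K18ac, with 526, 736 and 932 scaled reads with DMSO and 357, 290.3 and 308 with MS275 (-1.17 ± 0.25, adjusted p = 0.000208 by limma). PRC1 held 231, 354 and 480.1 scaled reads with DMSO and 186, 157 and 132 with MS275 at chr15:90993151-90996000 (-1.12 ± 0.25, adjusted p = 0.000508 by limma). HMMR held 240.0, 293 and 443 scaled reads with DMSO and 213, 129 and 116 with MS275 (-1.10 ± 0.25, adjusted p = 0.000657 by limma). At all 3 promoters the treatments did not overlap. The phosphatase gene CDC25C changed by -1.05 (adjusted p = 0.00101), CDC20 by -1.04 (adjusted p = 0.00123) and FOXM1 by -1.004 (adjusted p = 0.00181) by limma. DLGAP5, a spindle assembly factor, had the smallest difference (-0.08, adjusted p = 0.9), followed by SPC24 (-0.20, adjusted p = 0.722) and PLK1 (-0.29, adjusted p = 0.537 by limma). The H3K18ac calls depended on single libraries: they numbered 36 without DMSO replicate 1 (63.6% of all promoters), 10 without DMSO replicate 2 (24.3%) or 3 (29.4%), 32 without MS275 replicate 1 (57.1%), and 2 (11.2%) and 3 (15.1%) without MS275 replicates 2 and 3. The difference between the changes of both marks was tested in 1 limma fit over 38980 peaks, where 0 were called (0%; 681 had an unadjusted p under 0.05) and 0 of the 47 promoters. DLGAP5 had the smallest unadjusted p, with H3K18cr lower by a log2 difference of -0.76 ± 0.31 relative to H3K18ac (adjusted p = 1 by limma).

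**Figure D4:**
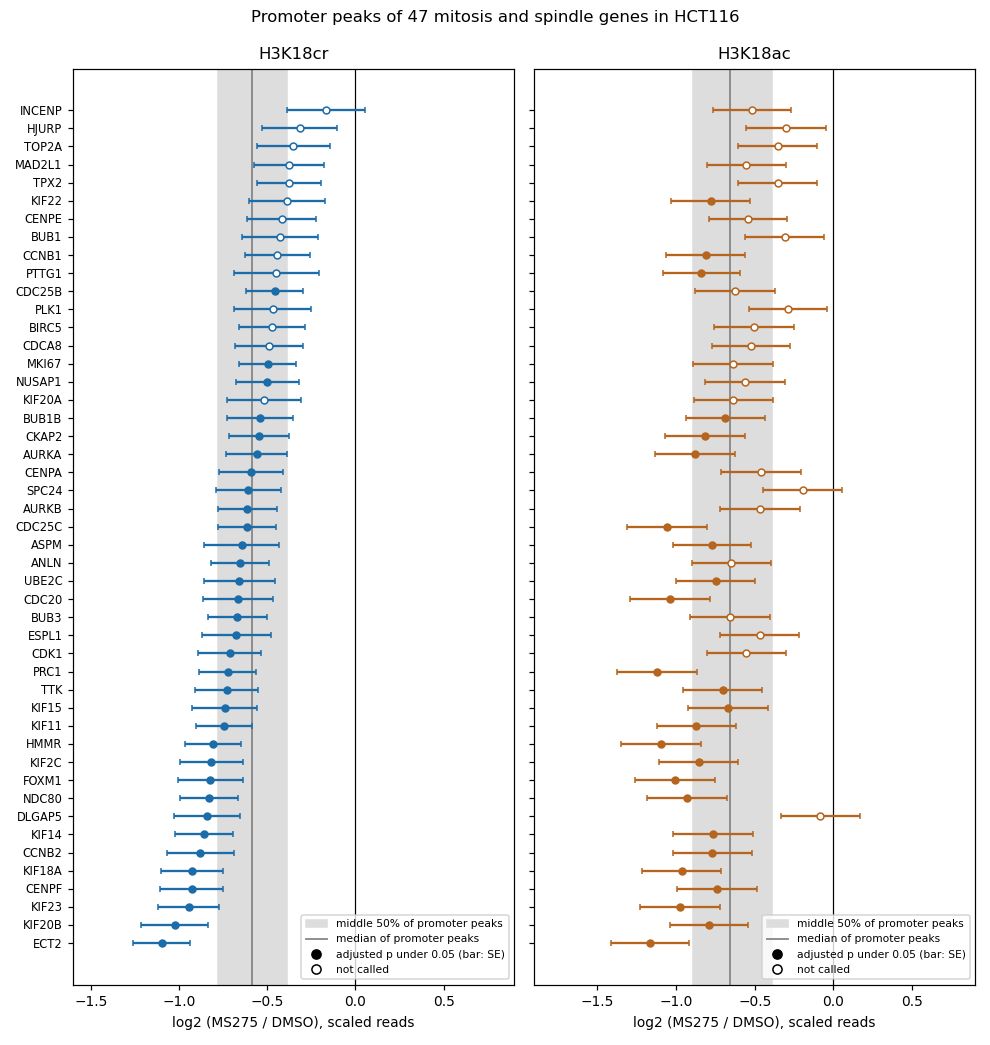
Log2 change (MS275 over DMSO) of H3K18cr and H3K18ac at the 47 promoter peaks of the mitotic genes in HCT116, with the SE from limma (3 libraries per treatment and mark, filled at an adjusted p under 0.05), beside the median and the middle 50% of all promoter peaks. All 47 estimates lie below 0 in both marks under the authors' scaling, and ECT2 lies lowest in both.

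The other 28 peaks of these genes, in 18 genes, also held more lower than higher values: 26 were lower in H3K18cr (9 called, median -0.36) and 23 in H3K18ac (3 called, median -0.30), and 0 were called higher. Over all peaks 23.4% and 16.6% were called lower. They include a peak of ESPL1, at chr12:53294401-53296800, at -0.96 in H3K18cr and -1.17 in H3K18ac (adjusted p = 0.000313 and 0.000245 by limma), and one of KIF15, at chr3:44861101-44863200, at -1.04 and -0.91 (adjusted p = 0.000161 and 0.00481 by limma). Both are also the start peak of another gene. At CENPA the peak over the RefSeq start (chr2:26784751-26788050), which is apart from the start in the table, stood at -0.54 and -0.50 (adjusted p = 0.0199 and 0.177 by limma).

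RNA and promoter marks were set side by side for the 47 genes. Over the 47 genes the paired RNA change correlated with the H3K18cr change at r = -0.03 (rho = -0.06) and with the H3K18ac change at r = 0.17 (rho = 0.18), descriptions over genes of the same libraries. The 7 genes that rose in the paired RNA fit had negative estimates in both marks, of which some were called. In H3K18cr ANLN (-0.65), ASPM (-0.64), CENPF (-0.93) and MKI67 (-0.50) were called, and BUB1 (-0.43), CENPE (-0.42) and TOP2A (-0.35) were not. In H3K18ac ASPM (-0.77) and CENPF (-0.74) were called, and ANLN (-0.65), MKI67 (-0.64), CENPE (-0.54), BUB1 (-0.31) and TOP2A (-0.35) were not. The genes whose RNA fell in the paired fit had negative estimates in both marks too. Among them, PLK1 stood at -0.47 and -0.29, its H3K18ac difference among the smallest of the 47, while PRC1 had an H3K18ac fall among the largest. The CHR stood in the promoters of 6 of the 7 genes that rose and of 5 of the 6 matched genes that fell, as in the PLK1, MKI67, TOP2A and BUB1 stretches printed above.

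In mouse colon epithelium H3K18cr was listed at fewer of these genes than at genes of like level, while H3K4me3 was listed at nearly all. A peak within 1 kb of the start was present for H3K18cr at 25 of the 49 genes (51.0%), against 80.6% of the 9171 genes at levels in the same range and 66.1% of the 14941 genes with a count. For H3K4me3 it was present at 48 of 49 (98.0%; Cdca8, of the passenger complex, had one within 2 kb), against 87.1% and 77.9%. Of the genes with an H3K4me3 peak, 52.1% of the mitotic genes also had H3K18cr, against 88.9% at the same levels and 80.3% of all. Within bins of level, H3K18cr was listed at 3 of 8 mitotic genes from percentile 20 to 40 (53.3% of all genes there), 10 of 23 from 40 to 60 (79.6%), 6 of 8 from 60 to 70 (87.1%), 2 of 4 from 70 to 80 (89.1%) and 4 of 6 from 80 to 90 (89.8%). These shares are descriptions over genes, with no test. The peak lists were made by the authors over all libraries of a table, and signal at starts without a peak was not analysed here.

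Genes with an H3K18cr peak within 1 kb of the start included Ccnb1, Plk1, Aurka, Foxm1, Cdc20, Cenpa, Kif20a, Top2a and Mki67. Not every such peak reached the start itself, and those of Ccnb1 and Kif23 lay wholly upstream of it. Genes without a peak within 1 kb of the start included Cdk1, Ccnb2, Bub1, Aurkb, Ube2c, Prc1 and Aspm, although Ccnb2 (percentile 85.1) and Ube2c (percentile 81.1) were among the most abundant in colon. Counting peaks anywhere in the gene or within 2 kb of it, 29 of the mitotic genes had H3K18cr, Cdk1 among them. At 6 of the 25 (Plk1, Aurka, Kif20a, Kif15, Cdc25b and Hmmr) the peak also came within 1 kb of the start of another gene, as of Cstf1 at Aurka, so it cannot be assigned to 1 of them. The 25 with a peak had a median percentile of 59.1 and the 24 without one of 50.7, and their median log2 ratios of H3K4me3 to input were alike, 2.51 and 2.42. Over all genes with a count, the ratio was 2.66 where both peaks were listed and 1.93 where only H3K4me3 was. Where it was listed, the H3K18cr peak was low and narrow: the median log2 ratio to input was 1.24, against 1.54 at all starts with a peak. Of the 25, 3 lay above that median, and the median width was 1200 bases against 1800. The median ratio was 1.14 against 1.38 in replicate 1 alone and 1.40 against 1.72 in replicate 2 alone. The number of genes above the median of all starts differed between these replicates. For H3K4me3 the median was 2.42 against 2.55, with 15 of 48 above, and the width 1500 bases against 1800.

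Foxm1 had the highest mean ratio of the mitotic genes in both marks. Its H3K18cr peak (chr6:128361901-128363400, GRCm38) held 142 and 289 scaled reads against 52 and 48.8 in the inputs, a log2 ratio of 1.98 (SD 0.79, n = 2). Its H3K4me3 ratio was 3.67 (SD 0.73, n = 3). Its H3K18cr rank rested on replicate 2, with a log2 ratio of 2.54; in replicate 1 it stood at 1.43, below Kif11 at 2.08, the highest there. Kif15 had an H3K18cr ratio of 1.63 (SD 0.04) and Kif11, the motor that pushes the spindle poles apart, 1.56 (SD 0.74). Plk1 held 87.5 and 162 scaled reads against 40 and 59.5 in the inputs (1.27), Cdc20 66.8 and 115 scaled reads against 33 and 33.6 in the inputs (1.37) and Mki67 63.6 and 118 scaled reads against 44 and 48.8 in the inputs (0.89). Mki67 was low in H3K18cr but not in H3K4me3, where its ratio was 3.02 (SD 0.57, n = 3). Hjurp stood apart, with a region 20250 bases wide holding 2738 and 3288 scaled reads against 2315 and 2633 in the inputs and a ratio of 0.28, so its reads were little above the input. The next widest H3K18cr peak, at Ect2, spanned 3450 bases and held 86 and 125 scaled reads in the inputs, fewer for its width. Hjurp is counted among the 25 genes with a peak.

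**Figure D5:**
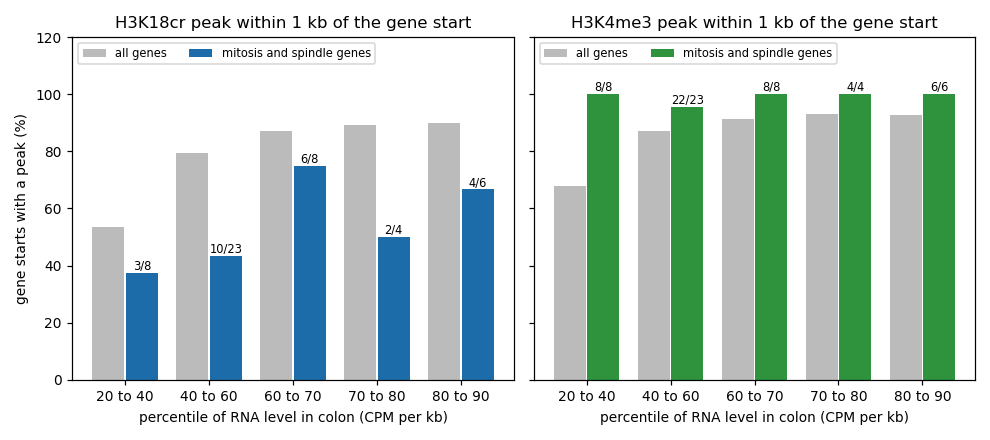
Percent of gene starts with an H3K18cr (left) or an H3K4me3 (right) peak in mouse colon epithelium, by percentile of RNA level, for the mitotic genes (coloured bars, with counts) and for all genes with a count (grey). H3K18cr was listed at a lower share of mitotic genes than of all genes in each of the 5 bins that hold any, and H3K4me3 at 48 of the 49.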

How the data were processed

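The RNA tables hold raw read counts per gene deposited by the authors; the HCT116 ChIP table holds log2 reads per peak, deposited after scaling each library to the largest, and the colon tables the same scaled reads as linear signal. The submitters' processing notes name Trim Galore 0.4.2, TopHat2 2.0.12 and Bowtie2 2.2.5; peaks were called with MACS within SEQMONK, 1 list per table, after duplicate removal. RNA was tested with edgeR 4.0.16 (quasi-likelihood, TMM, filterByExpr; R 4.3.3), and ChIP log2 values with limma 3.58.1 (peaks with at least 10 reads in 3 libraries), each with Benjamini-Hochberg adjustment over the whole table. From the log2 values 100% of whole reads were recovered (tolerance 0.02) for edgeR and DESeq2 1.42.0. Same-numbered RNA libraries deviated together (r = 0.475, 0.329, 0.697 and 0.719), so a fit with the number as a block was run beside the unpaired one. The labels do not state what a number shares, and numbers 2 and 4 were not told apart: DMSO replicate 2 with MS275 replicate 4 (0.445) and DMSO 4 with MS275 2 (0.420) exceeded pair 2. Colon ratios used a pseudocount of 1 scaled read; levels used GENCODE exon lengths. Alternatives were other scalings, filters and tools, and leaving out each library. Scripts were tested on simulated data. Named genes were 12 chosen mitosis genes and, per comparison, the 3 largest rises and falls and up to 5 called genes with the smallest p. Members and lists were chosen with earlier results of these data known.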

Additional observations from a re-analysis of the deposited data

Results flagged for a closer look

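In 8 of the 98 groups of 4 RNA libraries looked at (49 genes, 2 treatments), 1 library lay apart from the other 3 by Dixon's limit for 4 samples; chance alone gives about 1 in 20. DMSO replicate 3 was the low library at ANLN (74.3 CPM against 191 to 214), ECT2 (55.2 against 152 to 161), NUSAP1 (109.8 against 148 to 154) and ASPM (30.4 against 62.0 to 65.5), and the high one at CDC25B (405 against 292 to 311). DMSO replicate 1 was the high library at TPX2 (469 CPM against 339 to 346) and KIF2C (163 against 94.2 to 104). MS275 replicate 1 was the high library at CCNB2 (99.6 CPM against 85.0 to 85.6). The cause was not tested.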

How the results depend on the processing

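The count of mitotic genes with changed RNA was 0 in the unpaired fit and with any library left out, 15 with the replicate block (14.4% of all genes), 16 with DESeq2 and the block (16.3%), 13 with DESeq2's size factors and the block (14.7%), 15 with the block and no count filter (11.1%), and 5, 7, 11 and 4 with the block and without pairs 1 to 4; over all genes it was 1 unpaired, 2151 with the block, 161 with DESeq2 unpaired and 13 with no filter. The promoters called lower in H3K18cr numbered 33 (62.7% of all promoters), and 18 with TMM (35.2%), 14 with DESeq2 (31.0%), 19 by limma without a trend (41.7%; an alternative chosen after seeing the data) and 20 to 47 with 1 library left out; those in H3K18ac numbered 25 (49.3%), and 16 with DESeq2 (43.8%), 15 without a trend (35.9%; also added) and 2 to 36 with 1 library left out. Same-numbered H3K18cr libraries had correlated deviations of 0.111, 0.0787 and 0.241, each the highest of its DMSO library but 1 of them under 0.1, and H3K18ac libraries -0.207, 0.0487 and -0.136, so the numbers were not taken as pairs; with the block the counts were 38 and 0 by limma, and 29 and 24 by edgeR with TMM and the block, a fit also chosen after seeing the data. Among the named promoters, the ones run under each alternative, signs turned at 3: INCENP in H3K18cr was 0.0204 with TMM and block, 0.0227 with DESeq2 and 0.0218 without DMSO replicate 2 (-0.51 without 1 other library at the lowest); SPC24 in H3K18ac was 0.0643 with TMM, 0.0600 with TMM and block, 0.0586 with DESeq2 and 0.0160 without DMSO replicate 3 (-0.39 at the lowest); DLGAP5 in H3K18ac was 0.15 with TMM, TMM and block and DESeq2 and 0.11 without DMSO replicate 3 (-0.23 at the lowest). The colon median percentile was 58.6 without division by length, 68.9 among all genes of the table and 51.8 to 54.7 with 1 mouse left out. The causes were not tested. Colon ChIP had 2 or 3 libraries and no second condition, which limits its precision.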
